A study of Mus musculus with 7 samples.

Results

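The proteasome is the cell's main machine for degrading proteins tagged with ubiquitin, and its 44 subunit and maturation genes were followed here in irradiated B16 tumours. They are the protein-coding genes with the symbol Psma, Psmb, Psmc, Psmd or Psme and a number, plus Pomp, which makes 44 of the 56953 genes counted. RNA came from B16 cells, an established mouse melanoma line grown as tumours, taken 5 days after treatment and sorted as live cells without CD45 (the leukocyte surface marker) or CD31 (an endothelial marker). All tumours, controls included, had received radiotherapy at 8 Gy and an adeno-associated virus (AAV) vector. The vector was AAV-iIL12, named for the cytokine interleukin 12, in 3 libraries and AAV-iLuc, the control, in 4 libraries. Since the design text gives these numbers as numbers of mice, each library was taken as 1 animal. Titles of the AAV-iIL12 libraries also carry the letters WT, which the labels do not explain. The promoter of the vectors, the host strain and the age of the mice are not given in the sources used here.

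The proteasome core, the 20S particle, is a barrel of alpha rings that gate entry and beta rings that hold the proteolytic sites. A 19S cap, made of a base with a ring of ATPases and a lid, recognises and unfolds ubiquitylated substrates. Interferon gamma is known to induce the alternative catalytic subunits Psmb8, Psmb9 and Psmb10, which take the place of Psmb5, Psmb6 and Psmb7 in newly built cores, the immunoproteasomes. It also induces Psme1 and Psme2, which form an activator ring that can sit in place of the 19S cap. Immunoproteasomes favour peptides suited to class I MHC molecules, and B16 cells are known for low basal expression of this pathway.

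The libraries held between 16356653 and 19080587 counts, of which the proteasome genes took 0.55% to 0.57% in AAV-iIL12 and 0.47% to 0.50% in AAV-iLuc. Melanocyte markers summed to between 27850 and 28740 CPM (counts scaled to the library's depth and TMM factor) in AAV-iIL12 and to between 22840 and 25990 CPM in AAV-iLuc. Of those 7 markers, 3 rose (Pmel, Mlana and Mitf) in the test described below, in which 23.5% of all genes tested rose. The 14 leukocyte markers summed to 15.5, 9.88 and 7.42 CPM in AAV-iIL12 and to 17.9, 1.10, 1.07 and 3.04 CPM in AAV-iLuc. Of these, 6 passed the low-count filter and 0 passed the test. The T cell markers Cd3e and Cd8a were at 0 in every AAV-iLuc library, and held 3, 1 and 0 counts (Cd3e) and 6, 4 and 6 counts (Cd8a) in AAV-iIL12. The 6 endothelial markers summed to between 0.110 and 0.609 CPM over all libraries, with Cdh5, Tie1 and Emcn at 0 in each. The 7 fibroblast markers summed to between 57.1 and 155 CPM in AAV-iIL12 and between 82.9 and 288 CPM in AAV-iLuc, and 0 of them passed. The part of other cells or of tumour cell content in the results below was not tested, and in such bulk samples fewer cells of a type and less RNA per cell cannot be told apart.

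The promoters of the inducible catalytic subunits, of Psmb5 and Psmb6 and of Psme1 are printed here. The inducible genes are the members with the largest differences. Those of Psme2, also inducible, are not printed. Each sequence runs 5′ to 3′ on the gene's strand, from 250 bases before the start site to 50 bases from it, and comes from RefSeq on GRCm38.p6. Capitals mark a match on either strand to GAAA, any 2 bases and GAAA again (the core of an interferon-stimulated response element), to TTCNNNGAA (a gamma-activated sequence) or TGACNNNGC (an antioxidant response element core). The windows lie at chr17:34197945-34198244, plus strand for Psmb8, at chr14:54617946-54618245, minus strand for its standard counterpart Psmb5, at chr17:34187281-34187580, minus strand for Psmb9, at chr11:70525107-70525406, plus strand for its counterpart Psmb6, at chr8:105938343-105938642, minus strand for Psmb10, and at chr14:55578244-55578543, plus strand for Psme1.
Psmb8: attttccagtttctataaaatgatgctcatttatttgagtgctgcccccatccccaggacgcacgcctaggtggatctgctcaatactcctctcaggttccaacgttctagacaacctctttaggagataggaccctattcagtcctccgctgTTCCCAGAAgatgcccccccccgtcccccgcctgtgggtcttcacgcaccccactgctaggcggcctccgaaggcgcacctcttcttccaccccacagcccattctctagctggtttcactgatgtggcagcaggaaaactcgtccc
Psmb5: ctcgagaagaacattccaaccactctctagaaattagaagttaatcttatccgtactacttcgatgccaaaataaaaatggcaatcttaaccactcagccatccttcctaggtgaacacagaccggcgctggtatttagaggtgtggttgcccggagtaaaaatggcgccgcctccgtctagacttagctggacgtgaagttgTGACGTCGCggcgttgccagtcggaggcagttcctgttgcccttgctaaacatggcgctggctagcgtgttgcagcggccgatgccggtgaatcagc
Psmb9: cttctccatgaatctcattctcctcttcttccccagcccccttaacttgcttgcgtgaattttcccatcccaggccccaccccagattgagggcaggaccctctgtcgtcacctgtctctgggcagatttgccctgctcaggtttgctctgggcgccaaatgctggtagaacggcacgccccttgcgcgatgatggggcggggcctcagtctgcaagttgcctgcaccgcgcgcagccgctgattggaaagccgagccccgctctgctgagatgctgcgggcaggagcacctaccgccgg
Psmb6: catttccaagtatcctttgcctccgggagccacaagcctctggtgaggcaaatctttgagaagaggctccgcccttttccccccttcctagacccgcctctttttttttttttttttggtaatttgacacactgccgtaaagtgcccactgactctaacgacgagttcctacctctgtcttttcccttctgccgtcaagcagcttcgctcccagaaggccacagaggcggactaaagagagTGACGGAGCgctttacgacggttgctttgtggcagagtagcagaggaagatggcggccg
Psmb10: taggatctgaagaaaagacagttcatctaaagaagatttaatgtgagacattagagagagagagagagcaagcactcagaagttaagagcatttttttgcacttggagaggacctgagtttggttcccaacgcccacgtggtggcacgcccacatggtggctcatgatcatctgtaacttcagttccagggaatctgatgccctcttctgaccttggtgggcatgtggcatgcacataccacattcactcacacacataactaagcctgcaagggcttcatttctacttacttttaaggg
Psme1: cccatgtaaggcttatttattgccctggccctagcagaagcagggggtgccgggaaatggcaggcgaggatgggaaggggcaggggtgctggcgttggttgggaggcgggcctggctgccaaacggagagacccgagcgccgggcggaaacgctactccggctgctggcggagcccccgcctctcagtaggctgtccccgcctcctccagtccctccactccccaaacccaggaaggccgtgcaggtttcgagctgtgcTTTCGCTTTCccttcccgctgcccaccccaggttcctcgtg

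In the Psmb8 window the gamma-activated sequence lies from -97 to -89, counted from the start site as position 1 with no position 0. The Psme1 window holds the interferon-stimulated core on the minus strand from 10 to 19. Psmb5 and Psmb6 hold the antioxidant core from -47 to -39 and from -9 to -1. The windows of Psmb9 and Psmb10 hold none of these 3 elements, and neither do the Psme2 windows, which are not printed. The Psmb9 window shares 275 bases with that of Tap1, the peptide transporter gene read in the other direction. Among all 32851 windows of this length, 3.44% hold the interferon-stimulated core, 8.3% the gamma-activated sequence, 12.4% the antioxidant core and 37.4% the letters CCAAT, searched as well. Counted by gene, over 27025 genes, these shares are 3.99%, 9.55%, 14.0% and 41.1%. Windows were found for 37 of the 44 members, and not for Psma8, Psmb1, Psmb2, Psmb7, Psmc3, Psmd3 and Psmd7. The interferon-stimulated core was present in 4 of them (Psmb3, Psmd4, Psmd9 and Psme1), the gamma-activated sequence in 2 (Psmb8 and Psmd2), the antioxidant core in 6 (Psmb5, Psmb6, Psmc6, Psmd12, Psmd9 and Psme4) and CCAAT in 14. Windows this short leave out distant elements, and a match or its absence says nothing of binding.

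AAV-iIL12 tumours were compared with AAV-iLuc tumours to ask how the vector's cargo went with proteasome gene expression. The inducible catalytic subunits and the activator pair rose between 5.90-fold and 24.6-fold. The largest change among the other members was 1.79-fold, for Psma5, and more genes of the 19S cap fell than rose. Of the 44 members, 42 passed the low-count filter, 11 rose, 14 fell and 17 did not pass the test (edgeR's quasi-likelihood F test, with p adjusted by Benjamini-Hochberg over 13990 genes and a threshold of 0.05). These shares, 26.2% risen and 33.3% fallen, stand beside 23.5% and 23.7% of all genes tested. In either direction 59.5% of members were called, against 47.2% of all genes. The median log2 fold change was -0.12 for the members and -0.01 for all genes. With library size as the only scaling 9 members rose and 24 fell, and with upper quartile scaling 10 rose and 24 fell. Over all genes, too, fewer rose and more fell under these scalings than with TMM scaling. The 23.5% and 23.7% above are therefore no reference for these counts. The groups did not overlap for 13 members that were higher and 17 that were lower in AAV-iIL12, beside 25.9% and 26.7% of all genes tested, and 52.5% of all genes in either direction.

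**Figure D1:**
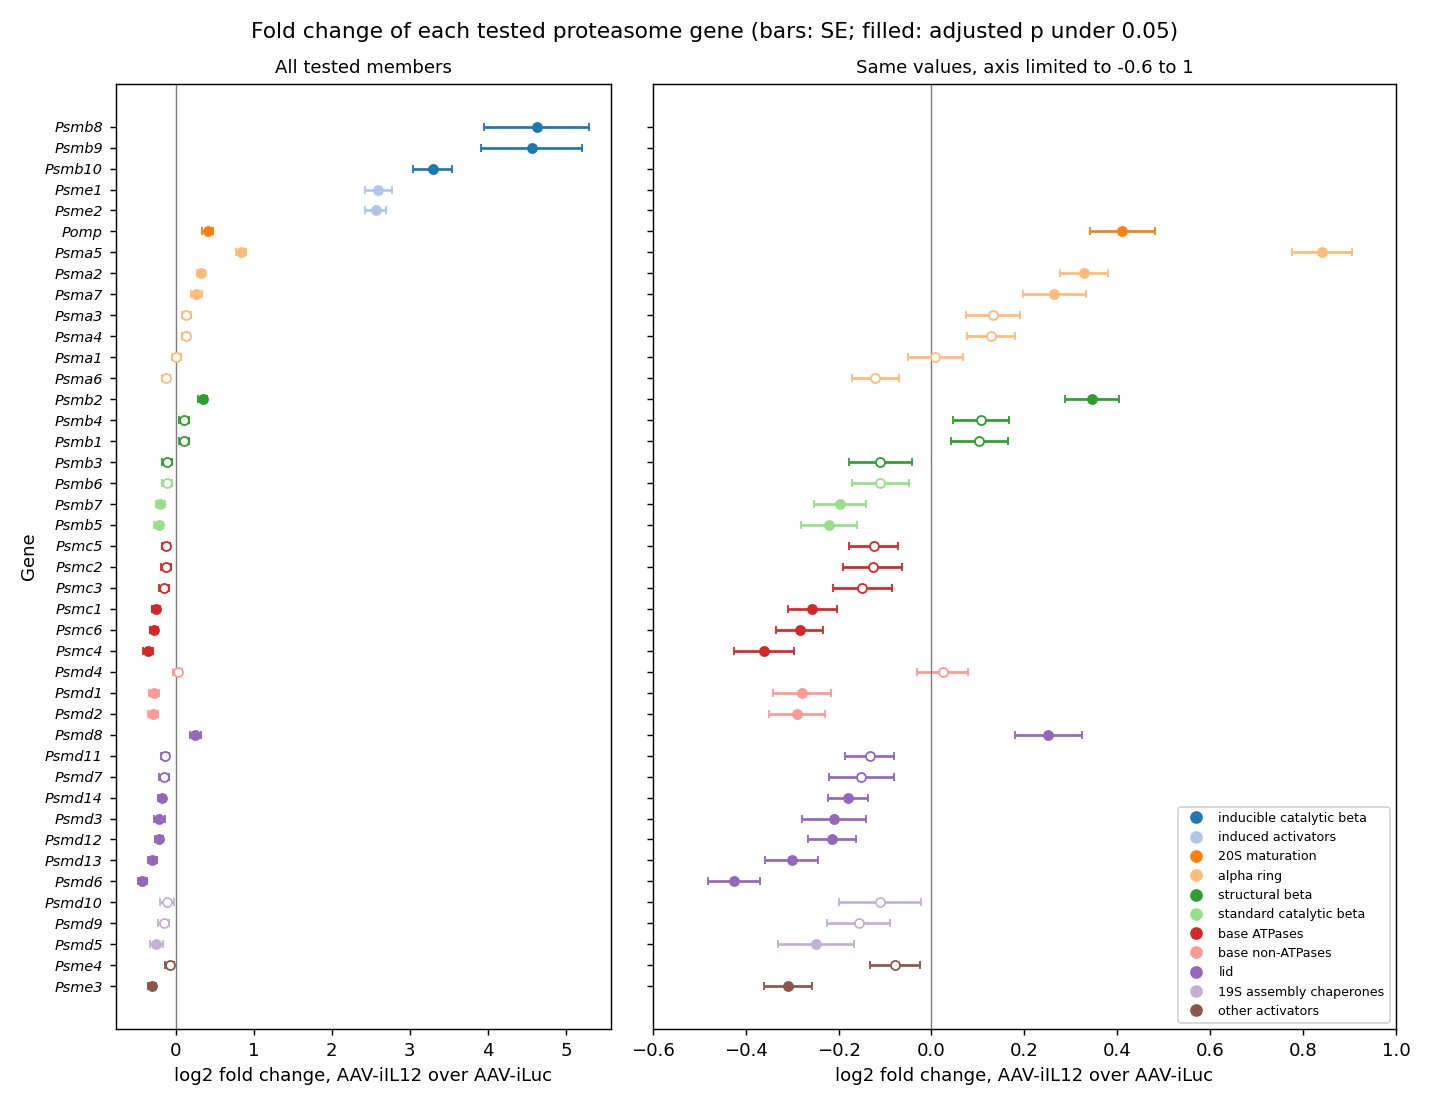
Log2 fold change of AAV-iIL12 over AAV-iLuc for the 42 tested proteasome genes, coloured by role, with standard errors as bars and filled points for adjusted p under 0.05. The left panel shows all values, from -0.43 for Psmd6 to 4.62 for Psmb8, and the right panel repeats them on a narrower axis that leaves out the 5 inducible members.

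Psmb8 encodes the inducible subunit with chymotrypsin-like activity and lies within the MHC, at chr17:34416695-34420428 on GRCm39. Its level was 446, 404 and 380 CPM in AAV-iIL12 and 43.9, 13.5, 6.08 and 2.68 CPM in AAV-iLuc. All AAV-iIL12 libraries lay above all AAV-iLuc libraries, and the lowest of them was 8.67-fold above the highest control. Psmb8 rose by 4.62 ± 0.67 on the log2 scale (± SE, adjusted p = 0.00033), or 24.6-fold.

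Psmb9 encodes the inducible subunit that replaces the caspase-like one, at chr17:34400961-34406738, next to Tap1. It stood at 272, 250 and 247 CPM in AAV-iIL12 and at 31.1, 6.74, 3.40 and 1.65 CPM in AAV-iLuc. The groups did not overlap, and the highest control was 18.9-fold above the lowest. Psmb9 rose by 4.56 ± 0.65 on the log2 scale (adjusted p = 0.000298), or 23.6-fold. Psmb10, the inducible subunit with trypsin-like activity (chr8:106662367-106665076), was at 238, 232 and 220 CPM in AAV-iIL12 and 38.5, 22.6, 16.9 and 15.7 CPM in AAV-iLuc. Its control level was the highest of the 3 inducible catalytic genes per length, at 13.7 FPKM (CPM per kilobase of exon) against 4.89 for Psmb8 and 2.93 for Psmb9. Psmb10 rose by 3.29 ± 0.25 (adjusted p = 6.9e-06).

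Psme1 encodes the alpha subunit of the interferon-induced activator ring, at chr14:55815580-55818986. It was at 432, 383 and 367 CPM in AAV-iIL12 and at 90.6, 66.4, 53.1 and 50.3 CPM in AAV-iLuc, with no overlap. It rose by 2.60 ± 0.18 (adjusted p = 4.17e-06). Psme2, the beta subunit, at chr14:55824898-55828570, was at 192, 178 and 183 CPM against 40.5, 31.4, 28.7 and 24.4 CPM. Again the groups did not overlap, and Psme2 rose by 2.56 ± 0.13 (adjusted p = 1.19e-06). Psme2b, a close copy of Psme2, held 110, 108 and 118 counts in AAV-iIL12 and 22, 10, 5 and 6 counts in AAV-iLuc, so the Psme2 counts are uncertain as far as reads could be split between them.

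Within the AAV-iLuc group, replicate 1 held the highest level and replicate 4 the lowest for each of these 5 genes. The same was true of Irf1, Nlrc5, Tap1 and Tap2. It also held for Psmf1, whose AAV-iLuc levels lay closer together, from 47.3 to 52.1 CPM. AAV-iLuc replicate 1 also had the highest leukocyte marker sum given above, and the part of those cells in its levels was not tested. Without it, the 5 genes still rose. Psmb8 was then 55.5-fold higher (adjusted p = 2.27e-06) and Psmb9 65.7-fold higher (adjusted p = 2.58e-07), so the sizes of both fold changes depend on that library. Psmb10 was 12.5-fold, Psme1 6.98-fold and Psme2 6.58-fold higher without it. The limma-voom fit to all libraries gave 40.8-fold for Psmb8 and 42.9-fold for Psmb9.

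**Figure D2:**
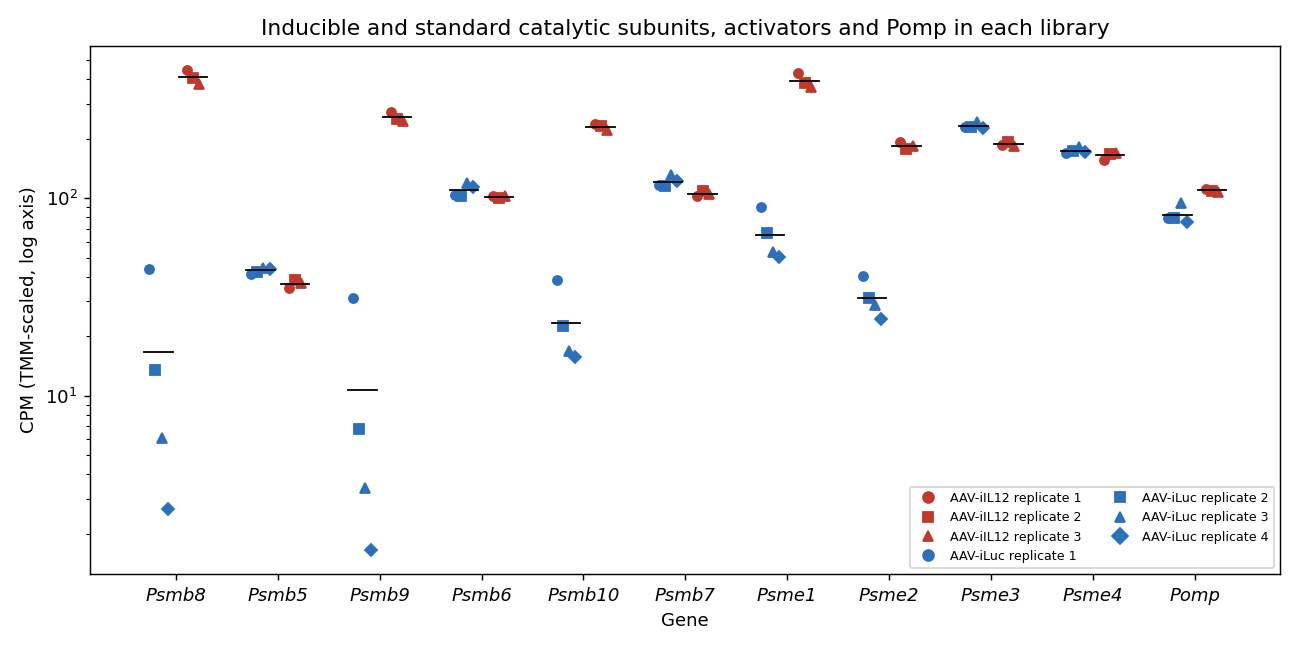
Level of each inducible catalytic subunit beside its standard counterpart, the activators and Pomp in every library, in CPM on a log axis, with red for AAV-iIL12, blue for AAV-iLuc and a line at each group mean. Psmb8, Psmb9, Psmb10, Psme1 and Psme2 separate widely between the groups, and the AAV-iLuc libraries spread most for Psmb8 (2.68 to 43.9 CPM) and Psmb9 (1.65 to 31.1 CPM).

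Of the 3 standard catalytic subunits, 2 fell and 1 did not pass, where 23.7% of all genes tested fell and 47.2% were called. Psmb5, the standard chymotrypsin-like subunit (chr14:54851576-54855479), was at 35.2, 38.4 and 37.2 CPM in AAV-iIL12 and 41.3, 42.5, 44.5 and 44.0 CPM in AAV-iLuc. Every AAV-iIL12 library lay below every control, and Psmb5 fell by 0.22 ± 0.060 on the log2 scale (adjusted p = 0.0123), a change of -14.2%. The microRNA gene Mir686 shares 12.12% of the Psmb5 exon bases on the same strand. Psmb7, the standard trypsin-like subunit, was at 103, 109 and 105 CPM against 116, 115, 130 and 123 CPM. It fell by 0.20 ± 0.057 (adjusted p = 0.0161) with no overlap between groups, and the call was lost without AAV-iIL12 replicate 1 or replicate 3. Psmb6, the standard caspase-like subunit, was at 102, 101 and 103 CPM against 104, 103, 119 and 114 CPM, and its log2 fold change of -0.11 ± 0.061 did not pass (adjusted p = 0.164).

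Because the genes of a pair encode subunits for the same position in the ring, the inducible gene's share of each pair of transcripts was computed per kilobase of exon, as a description with no test. Psmb8 made up 77.1%, 73.7% and 73.1% of Psmb8 plus Psmb5 in AAV-iIL12 and 22.0%, 7.81%, 3.50% and 1.6% in AAV-iLuc. Psmb9 made up 57.7%, 56.0% and 55.1% of Psmb9 plus Psmb6 in AAV-iIL12 and 13.3%, 3.25%, 1.44% and 0.732% in AAV-iLuc. Psmb10 made up 82.3%, 81.1% and 80.8% of Psmb10 plus Psmb7 in AAV-iIL12 and 39.9%, 28.3%, 20.7% and 20.4% in AAV-iLuc. Per kilobase of exon, the inducible transcript of each pair was the larger in all AAV-iIL12 libraries and the smaller in all AAV-iLuc libraries, and the groups did not overlap.

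As a ratio, Psmb8 stood to Psmb5 at 2.96 ± 0.354 (SD, n = 3) in AAV-iIL12 and 0.105 ± 0.122 (SD, n = 4) in AAV-iLuc. The ratio of Psmb9 to Psmb6 was 1.29 ± 0.068 against 0.0524 ± 0.0686, and that of Psmb10 to Psmb7 was 4.38 ± 0.228 against 0.394 ± 0.191. These values move with the gene length used. With no length correction the AAV-iIL12 ratios were 11.1, 2.52 and 2.18 in that order, and with the length of 1 principal transcript per gene they were 6.15, 1.49 and 1.93. With no length correction Psmb8 stood to Psmb5 at 1.06 in AAV-iLuc replicate 1, above parity. Transcript shares are not shares of assembled particles, which were not measured.

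**Figure D3:**
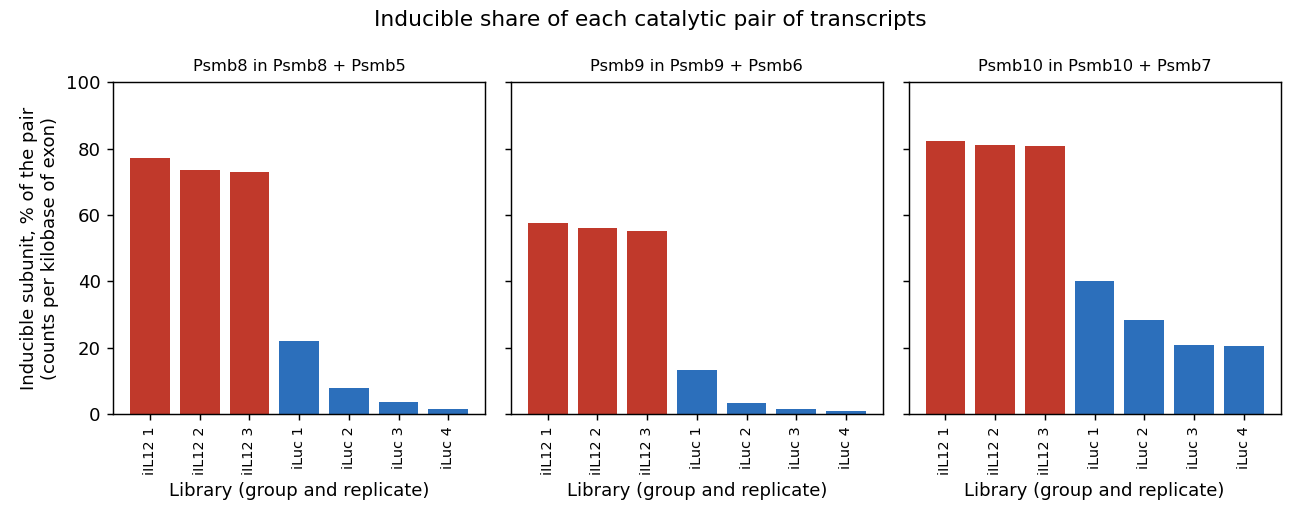
Share of the inducible transcript in each catalytic pair, in percent of counts per kilobase of exon, with 1 bar per library, red for AAV-iIL12 and blue for AAV-iLuc. The AAV-iIL12 bars lie between 55.1% and 82.3% and the AAV-iLuc bars between 0.732% and 39.9%.

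Summed over the 5 inducible members, expression was 1580, 1447 and 1398 CPM in AAV-iIL12 and 245, 141, 108 and 94.7 CPM in AAV-iLuc. That was 26.7%, 24.6% and 24.6% of the CPM of all members in AAV-iIL12 and 5.22%, 3.06%, 2.20% and 2.02% in AAV-iLuc. The other members together stood at 4327, 4429 and 4291 CPM in AAV-iIL12 and at 4438, 4456, 4802 and 4599 CPM in AAV-iLuc. Of the 37 other members tested, 6 rose, 14 fell and 17 did not pass, with a median log2 fold change of -0.13. Their shares of 16.2% risen and 37.8% fallen stand beside 23.5% and 23.7% of all genes tested. In either direction 54.1% of them were called, against 47.2% of all genes.

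Among the alpha ring genes, which form the outer rings of the core, 3 of 7 tested members rose and 0 fell. In either direction 42.9% were called, against 47.2% of all genes tested. The share risen, also 42.9%, stands beside 23.5% of all genes, of which 23.7% fell. Psma5 was at 74.0, 65.9 and 67.3 CPM in AAV-iIL12 and 39.9, 37.3, 40.7 and 36.3 CPM in AAV-iLuc. The groups were well apart, and Psma5 rose by 0.84 ± 0.065 on the log2 scale (adjusted p = 7.66e-06), or 1.79-fold, the largest rise among members outside the 5 inducible ones. Among the controls AAV-iLuc replicate 3 was highest for Psma5, at 40.7 CPM and little above the 39.9 CPM of replicate 1. Replicate 4 was lowest, as for the inducible genes. Psma2 was at 109, 113 and 104 CPM against 84.6, 82.9, 89.4 and 88.7 CPM and rose by 0.33 ± 0.051 (adjusted p = 0.000522). Psma7 rose by 0.26, a call lost with library size as the only scaling. Psma6, the most abundant alpha gene per length at 70.3 FPKM in AAV-iIL12 and 76.4 FPKM in AAV-iLuc, was at 86.0, 84.6 and 89.6 CPM against 88.9, 93.8, 96.4 and 98.1 CPM. Its log2 fold change of -0.12 did not pass, nor did those of Psma1, Psma3 and Psma4 (0.01, 0.13 and 0.13). Psma8, the testis form of an alpha subunit, had 0 counts in all 7 libraries, where a count of 0 allows up to 3 counts per library.

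Of the 4 beta ring subunits without a catalytic site, 1 rose and 3 did not pass. The share risen, 25%, is near the 23.5% of all genes tested. Psmb2 was at 94.0, 89.5 and 84.6 CPM in AAV-iIL12 and 69.5, 68.6, 76.1 and 67.2 CPM in AAV-iLuc. With no overlap between groups, it rose by 0.35 ± 0.059 (adjusted p = 0.000912). Psmb4, the most abundant of this class over all libraries at 68.0 FPKM, was at 128, 144 and 143 CPM against 120, 130, 135 and 128 CPM, and its groups overlapped. Psmb4, Psmb1 and Psmb3 did not pass, with log2 fold changes of 0.11, 0.10 and -0.11. Psmb11, the catalytic subunit of thymic epithelium, held at most 4 counts in any library and was not tested. Pomp, the chaperone that helps assemble and mature the core, was at 112, 109 and 108 CPM in AAV-iIL12 and 79.7, 79.7, 94.0 and 75.9 CPM in AAV-iLuc. Every AAV-iIL12 library was above every control, and Pomp rose by 0.41 ± 0.070 (adjusted p = 0.000913).

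Of the 17 base and lid genes of the 19S cap, 10 fell, 1 rose and 6 did not pass, with a median log2 fold change of -0.21, where 23.7% of all genes tested fell. Of the 14 core genes outside the 3 inducible ones, 4 rose, 2 fell and 8 did not pass, with a median of 0.10. Their shares of 28.6% risen and 14.3% fallen stand beside 23.5% and 23.7% of all genes tested. The difference between cap and core was not tested. With library size as the only scaling, 15 cap genes fell and 0 rose, while 5 core genes fell and 3 rose. Under that scaling more of all genes fell and fewer rose as well. The shares of 23.5% and 23.7%, from TMM scaling, are thus no reference for these counts.

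The 6 ATPases of the base form the ring that unfolds substrates, and 3 of them fell and 0 rose. In either direction 50% were called, close to the 47.2% of all genes tested. The share fallen, also 50%, stands beside 23.7% of all genes. Psmc4 was at 120, 118 and 118 CPM in AAV-iIL12 and 145, 141, 167 and 155 CPM in AAV-iLuc. With no overlap, it fell by 0.36 ± 0.064 (adjusted p = 0.0012). Psmc6 was at 91.8, 98.8 and 99.8 CPM against 114, 116, 120 and 122 CPM and fell by 0.28 ± 0.051 (adjusted p = 0.00125). Psmc1 fell by 0.26. Psmc5, the most abundant member of the base per length at 114 FPKM in AAV-iIL12 and 124 FPKM in AAV-iLuc, was at 159, 163 and 154 CPM against 169, 168, 182 and 173 CPM. Its groups did not overlap, but the log2 fold change of -0.12 did not pass (adjusted p = 0.0751), nor did those of Psmc2 and Psmc3 (-0.13 and -0.15).

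The 2 large scaffold subunits of the base, which dock ubiquitin receptors and shuttles, both fell, where 23.7% of all genes tested fell. Psmd2, at 291, 320 and 314 CPM in AAV-iIL12 and 366, 369, 399 and 374 CPM in AAV-iLuc, fell by 0.29 ± 0.060 (adjusted p = 0.00295). Psmd1, at 154, 175 and 170 CPM against 198, 199, 215 and 195 CPM, fell by 0.28 ± 0.062 (adjusted p = 0.00438), and 4.14% of its exon bases are shared with Gm21972. Neither gene's groups overlapped, where 26.7% of all genes tested were lower in AAV-iIL12 without overlap. The ubiquitin receptor gene Psmd4 had a log2 fold change of 0.02, which did not pass and was below 0 with library size or upper quartile scaling and without AAV-iIL12 replicate 2.

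In the lid, which carries the deubiquitinase Psmd14, 5 of 8 genes fell and 1 rose, where 23.7% of all genes tested fell and 23.5% rose. Psmd6 showed the largest fall of any member, from 57.1, 57.9, 61.4 and 62.9 CPM in AAV-iLuc to 45.3, 43.5 and 44.9 CPM in AAV-iIL12. It fell by 0.43 ± 0.056 on the log2 scale (adjusted p = 0.000189), a change of -25.5%. Psmd13 was at 72.6, 76.5 and 70.9 CPM against 85.8, 88.9, 97.9 and 89.1 CPM and fell by 0.30 ± 0.057 (adjusted p = 0.00171). Psmd12, Psmd3 and Psmd14 fell by 0.21, 0.21 and 0.18, and the Psmd3 call was lost without any 1 of AAV-iIL12 replicates 1 or 3 or AAV-iLuc replicates 3 or 4. Psmd8 was the only lid gene that rose and the most abundant of them per length, at 109 FPKM in AAV-iIL12 and 91.9 FPKM in AAV-iLuc. Its levels were 355, 329 and 319 CPM against 294, 300, 253 and 277 CPM, without overlap. The rise of 0.25 ± 0.072 (adjusted p = 0.0154) was lost with library size only and with upper quartile scaling. Psmd11 and Psmd7 did not pass, with log2 fold changes of -0.13 and -0.15.

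The chaperones that assemble the 19S base stood at 3.70 to 10.4 FPKM in AAV-iIL12 and 4.13 to 11.3 FPKM in AAV-iLuc. Psmd5 was at 36.3, 41.9 and 39.6 CPM in AAV-iIL12 and 49.5, 41.0, 46.8 and 49.3 CPM in AAV-iLuc. The groups overlapped, and its fall of 0.25 ± 0.082 (adjusted p = 0.0297) was lost in 8 of 18 alternative fits. Psmd10, the most abundant of the class, was at 15.5, 15.4 and 15.1 CPM against 14.6, 17.7, 16.6 and 17.4 CPM. It did not pass, nor did Psmd9, with log2 fold changes of -0.11 and -0.16.

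Of the other 2 activators, 1 fell and 1 did not pass, where 47.2% of all genes tested were called and 23.7% fell. Psme3, which forms a nuclear activator ring, was at 186, 193 and 183 CPM in AAV-iIL12 and 228, 229, 242 and 228 CPM in AAV-iLuc. With no overlap, Psme3 fell by 0.31 ± 0.052 (adjusted p = 0.000813), while its relatives Psme1 and Psme2 rose. Psme4, a large single-chain activator, was at 157, 168 and 170 CPM against 169, 174, 182 and 172 CPM, and its log2 fold change of -0.08 did not pass (adjusted p = 0.256). Per length, Psme3 was the most abundant activator gene in AAV-iLuc at 78.6 FPKM, against 29.5 for Psme1 and 17.7 for Psme2. In AAV-iIL12 the order was Psme1 at 178, Psme2 at 105 and Psme3 at 63.5 FPKM.

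Genes that work with the proteasome were read from lists by function. Among 10 other parts and assembly factors, 3 rose, 4 fell and 3 did not pass, where 47.2% of all genes tested were called. Psmf1, an inhibitor of the core, rose from 52.1, 51.9, 51.5 and 47.3 CPM in AAV-iLuc to 105, 87.8 and 81.7 CPM in AAV-iIL12, by 0.85 ± 0.083 (adjusted p = 2.94e-05). Psmg3, a chaperone of the alpha ring, fell by 0.51 ± 0.124 (adjusted p = 0.00731). Sem1, a small lid subunit and the most abundant of this list per length, fell by 0.23 ± 0.051 (adjusted p = 0.00361). Among 11 deubiquitinases, ligases and shuttle factors, 2 rose and 7 fell, beside 23.5% and 23.7% of all genes tested. Both deubiquitinases of the 19S cap in that list fell: Uchl5 by 0.69 ± 0.098 (adjusted p = 0.000296) and Usp14 by 0.40 ± 0.048 (adjusted p = 0.000103). Rad23b, the most abundant shuttle of the list per length, fell by 0.27 ± 0.053 (adjusted p = 0.00218). Of 6 genes of the p97 unfoldase and its adaptors, Vcp fell by 0.24 ± 0.070 (adjusted p = 0.0178) and 5 did not pass.

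Of 5 genes for ubiquitin and its activating enzymes, the polyubiquitin gene Ubb rose and 4 did not pass, where 23.5% of all genes tested rose. Ubb went from 223, 236, 236 and 211 CPM in AAV-iLuc to 415, 362 and 343 CPM in AAV-iIL12, a rise of 0.72 ± 0.075 (adjusted p = 4.45e-05). Ubb is built of repeated ubiquitin units that can share reads with other ubiquitin genes, so its counts are uncertain. All 4 genes of the list of transcription factors and coactivators for proteasome genes rose, with log2 fold changes between 0.28 and 4.27. Irf1, an interferon-induced activator of the immune subunits, was at 890, 920 and 892 CPM in AAV-iIL12 and 121, 24.0, 24.5 and 16.8 CPM in AAV-iLuc, with no overlap. It rose by 4.27 ± 0.61 (adjusted p = 0.000313), and Nlrc5, a coactivator of class I MHC genes, rose by 3.72 ± 0.43 (adjusted p = 8.31e-05). Nfe2l1, known to drive the genes of standard subunits, rose by 0.62 ± 0.066 (adjusted p = 4.93e-05). The neighbours of Psmb8 and Psmb9 in the MHC rose as well: Tap1 by 4.14 ± 0.58 (adjusted p = 0.000267) and Tap2 by 4.23 ± 0.43 (adjusted p = 3.66e-05). The ratio of mean CPM between groups moved without AAV-iLuc replicate 1 from 19.4 to 41.4 for Irf1, from 13.2 to 20.5 for Nlrc5, from 17.6 to 33.0 for Tap1 and from 18.8 to 28.7 for Tap2.

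**Figure D4:**
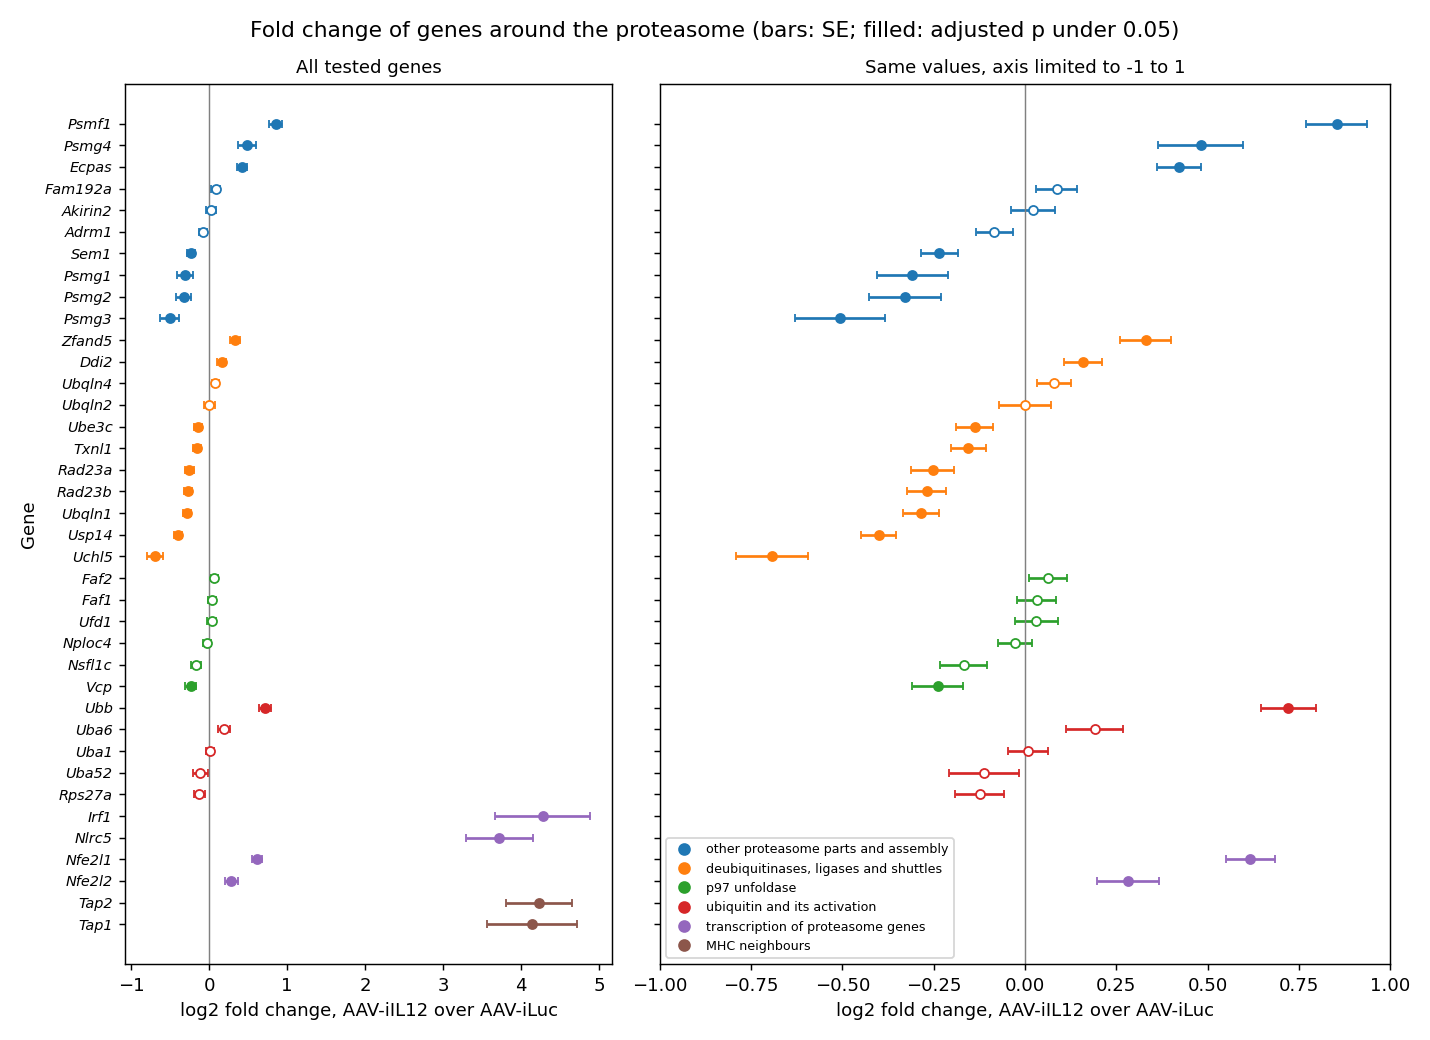
Log2 fold change of AAV-iIL12 over AAV-iLuc for the genes that work with the proteasome, coloured by list, with standard errors as bars and filled points for adjusted p under 0.05. Uchl5 lies lowest at -0.69, and Irf1, Tap1, Tap2 and Nlrc5 lie beyond the narrower axis of the right panel, at 3.72 or more.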

How the data were processed

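RNA of 7 libraries (3 AAV-iIL12, 4 AAV-iLuc) was deposited as unnormalized counts per gene. The authors' counting, per the file headers, used featureCounts 1.6.0 on GENCODE vM32 exons in reverse-stranded, paired mode, and no option for multi-mapping reads was set. Per the submitters' processing notes, STAR 2.7.9a, FastQC 0.11.8 and GRCm39 were also used. Symbols came from GENCODE vM21 by gene identifier, which matched 52029 of 56953 identifiers and 99.4% of counts. Coordinates of genes are as deposited (GRCm39).

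The quasi-likelihood F test of edgeR 4.0.16 (R 4.3.3) compared the groups after filterByExpr and TMM scaling, and p-values were adjusted by Benjamini-Hochberg over the 13990 genes tested, with 0.05 as threshold. Standard errors were derived from the F statistic. CPM are TMM-scaled, and FPKM divides CPM by the exon length given in the files, in units of 1000 bases. Levels of single genes are compared in FPKM, except where a ratio is said to have no length correction. Sums over members are in CPM. The deposited counts carry no batch label, and no pair of libraries of a group was identical or within sampling noise.

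The members, role classes and lists were chosen with earlier results of these data known. Always named were the catalytic, activator and maturation genes. From each other class or list the rule took the most abundant gene per length and the 2 largest changes among those past the threshold, and it gave other members by their log2 fold change. Of the lists of genes that work with the proteasome, 2 genes are not reported here. Genes outside that rule (Nfe2l1, Psme2b, and Pmel, Mlana, Mitf, Cd3e, Cd8a, Cdh5, Tie1 and Emcn among the markers) were named after their values were seen. Alternatives were 3 other scalings, 2 other low-count filters, DESeq2 1.42.0, limma-voom (limma 3.58.1), also with quality weights, thresholds of 0.01 and of a log2 change of 1, a replicate block, each library left out, and other gene lengths, of which principal coding and transcript lengths were chosen after seeing the data.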

Additional observations from a re-analysis of the deposited data

Results flagged for a closer look

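Psme3 in AAV-iLuc replicate 3 stood at 242 CPM, and its gap to the next highest AAV-iLuc library, as a part of the group's whole range, was past Dixon's critical value for 4 samples. This was 1 of 42 member groups examined, and chance places about 5% of groups past that value. AAV-iIL12 held 3 libraries and was not examined in this way.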

How the results depend on the processing

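Psmb8, Psmb9, Psmb10, Psme1 and Psme2 rose in every alternative fit. Under both library size alone and upper quartile scaling, 24 members and 5 core genes outside the inducible ones fell, and 0 cap genes rose. Fewer of all genes rose and more fell under these scalings, too, than with TMM scaling. At an adjusted p under 0.01, 0 of those core genes, 0 standard catalytic genes fell and 0 cap genes rose. With a minimum log2 change of 1, 817 of all genes rose and 654 fell, while 5 members, the inducible ones, rose and 0 fell. Of the cap genes and of those core genes outside the inducible ones, standard catalytic genes included, 0 were called. Leaving out each library in turn, 1 to 2 of those core genes and 1 to 2 standard catalytic genes fell, 11 to 12 members rose and 11 to 15 fell. For the threshold of 0.01 and for each library left out, counts over all genes are not given here. The sign turned for Psmd4 (-0.0663 and -0.0482) and Psma1 (-0.0834 and -0.0645) with library size and upper quartile scaling in that order, for Psmd4 without AAV-iIL12 replicate 2 (-0.0142) and for Psma1 without the same library (-0.0019) and without AAV-iLuc replicate 2 (-0.0349). With each library left out, Psmd4 ranged from -0.0142 to 0.0593 and Psma1 from -0.0349 to 0.0476. The cause was not tested.

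With the replicate number as a block, 11 members rose and 11 fell, with 1 standard catalytic gene (and 1 of the core genes outside the inducible ones) fallen. Counts over all genes with that block are not given here. Deviations of same-numbered libraries correlated at 0.0876, 0.0337 and -0.0485, so the numbers were not taken to pair them.

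The ratio of Psmb8 to Psmb5 in AAV-iIL12 was 11.1 with no length correction, 10.7 with coding length and 6.15 with transcript length, and in AAV-iLuc 0.395, 0.377 and 0.218. Psmb9 to Psmb6 was, in the same order, 2.52, 2.73 and 1.49 in AAV-iIL12 and 0.102, 0.111 and 0.0604 in AAV-iLuc. Psmb10 to Psmb7 was 2.18, 2.22 and 1.93 in AAV-iIL12 and 0.197, 0.199 and 0.174 in AAV-iLuc. Coding length from a protein table was not run.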
